A study of Homo sapiens with 8 samples.

Results

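The NUAK2 locus was examined in 3 lists of regions called from chromatin immunoprecipitation followed by sequencing (ChIP-seq). The cells were of the established human embryonic stem cell line WA09. The locus was taken as the hg19 window chr1:205200000-205360000, which holds the NUAK2 gene (205271185 to 205290883, minus strand) and a TEAD4 region listed among the first 5 rows of the TEAD4 list of DMSO cells. It held 70 of the 972037 regions in the 3 lists. There were 25 of 262109 TEAD4 regions of SB431542-treated cells, 19 of 289380 TEAD4 regions of DMSO-treated cells and 26 of 420548 SMAD2 regions of DMSO-treated cells. The SB431542 cells had been kept for 4 h in 10 µM of this inhibitor of the type I receptors for activin, Nodal and TGF-β, and the DMSO cells in its solvent for the same 4 h. All cells were grown on Matrigel in MEF-conditioned DMEM/F12 medium with KO serum, so the lists describe a single line in 1 culture condition. Each group had 1 library, so that no value has a replicate error and no p-value is given. The other 5 groups of the study (input DNA and IgG for each treatment, and SMAD2 under SB431542) were not analysed here.

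NUAK2, also called SNARK, is a serine/threonine kinase related to AMP-activated kinase, acts on the actomyosin cytoskeleton, and has been described in human cancer cells as a target of YAP that acts back on the Hippo pathway. In that pathway the kinases LATS1 and LATS2 phosphorylate the coactivators YAP1 and WWTR1 (TAZ) and keep them out of the nucleus. Unphosphorylated YAP1 and WWTR1 bind DNA through TEAD proteins such as TEAD4, often at enhancers far from gene starts. SMAD2 carries the activin and Nodal signal, which maintains pluripotency in human embryonic stem cells, and its phosphorylation by the type I receptors is what SB431542 blocks. In a RefSeq gene table, TMCC2 is the next protein-coding gene past the NUAK2 end and KLHDC8A the next before its start.

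The lists give a chromosome, a start and an end per region and no height, score or read count, and the depth is unknown. A value below is therefore a position, a width or a row number, and a region missing from a list was not called there, which is no measure of binding. All starts of both DMSO lists lie on a 50 bp grid (100% of starts), against 1.97% in the SB431542 list. The treatments and the ways the lists were made cannot be told apart. Row number was read as the authors' order, with wide regions first: the median width was 198 bp in the first 10% of rows and 106 bp in the last 10% of TEAD4 rows in SB431542, 299 and 99 bp for TEAD4 in DMSO, and 249 and 99 bp for SMAD2.

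A row number does not place a region exactly. Apart from the first rows, each list ran in stretches in which regions were ordered by chromosome name and position, both downward. The step to the next row went down in this order for 97.4% of TEAD4 rows in SB431542, 98.8% of TEAD4 rows in DMSO and 95.2% of SMAD2 rows, against 52%, 55% and 66% of the first 100 steps of these lists. The median row lay in a stretch of 528 rows for TEAD4 in SB431542, 3907 rows for TEAD4 in DMSO and 328 rows for SMAD2. Chromosome 1 came last in such a stretch, so a NUAK2 region usually stands near its end. Differences between rows of the same stretch were therefore not read as rank. For some regions in long stretches the rows that the stretch spans are given. Other row numbers printed below without a span can lie in long stretches too and carry the same limit.

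The TEAD4 region that led the locus lay just past the end of NUAK2 and was called under both treatments. Under SB431542 the region spanned chr1:205270535-205270989 (row 368, width 455 bp), and in DMSO it spanned chr1:205270251-205270949 (row 4, width 699 bp). They overlapped by 415 bp. The SB431542 region ended 196 bp and the DMSO region 236 bp from the last base of the gene span, and both lay 19.9 kb from its start. This places the region beyond the annotated gene, on the side of TMCC2. The row of the DMSO region is what chose it. The rows on either side of that choice were row 5 on chromosome 8 (130527801 to 130528249, 449 bp) and row 6 on chromosome 2 (214052901 to 214053299, 399 bp). Neither row 4 in DMSO, alone in its stretch, nor row 368 in SB431542, in a stretch of 2 rows, was affected by the ordering within stretches.

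The SB431542 region was shifted within the DMSO region. Its midpoint lay 162 bp nearer to the gene, it reached 40 bp past the gene-side border of the DMSO region, and it left 284 bp on the far side uncovered. A further and narrow SB431542 region (chr1:205270107-205270220, row 104957, 114 bp) stood on that far side, 30 bp outside the DMSO region. Thus where the DMSO list gave 1 wide region, the SB431542 list gave a region of row 368 over the gene-side part and one at 40% of its rows just beyond the other border. The SMAD2 list had no region there. Its nearest lay 3401 bp away inside the gene (chr1:205274351-205274449).

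**Figure D1:**
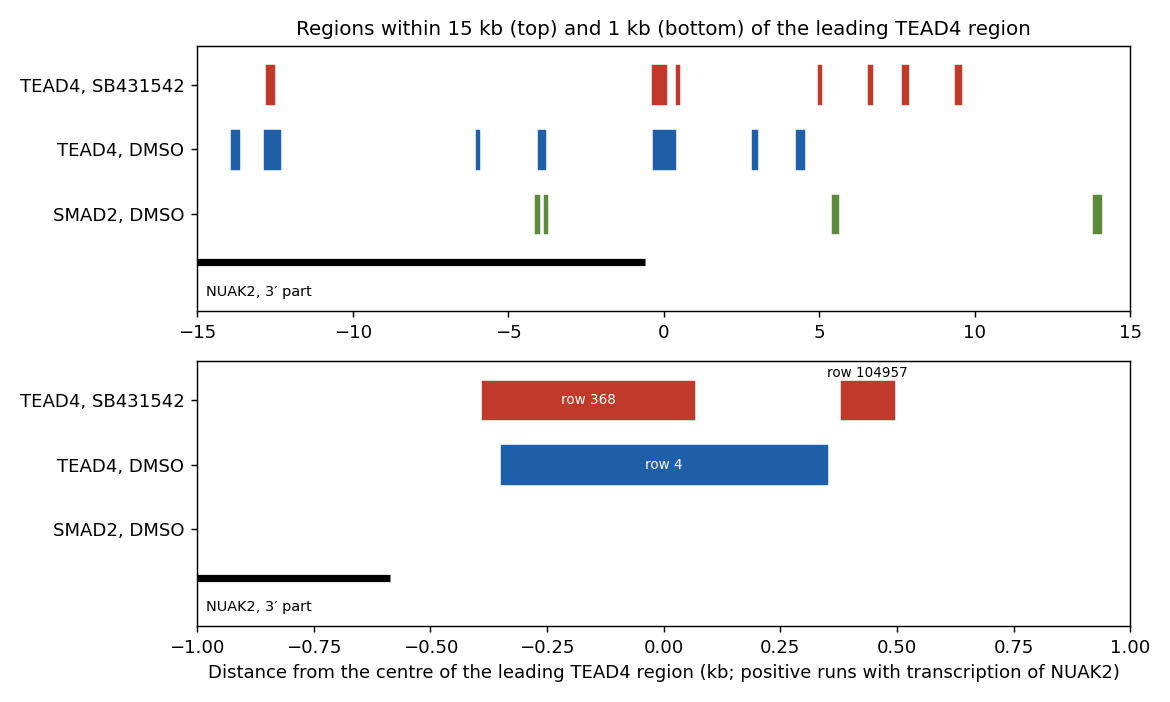
Regions of the 3 lists drawn to scale by distance (kb) from the centre of the leading TEAD4 region, within 15 kb (top) and 1 kb (bottom); the black bar is the 3′ part of NUAK2. The SB431542 region of row 368 overlaps the DMSO region of row 4 by 415 bp and is set toward the gene, and no SMAD2 region lies within 1 kb.

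In the DMSO list all TEAD4 regions in rows 1 to 100 overlapped an SB431542 region, so the recall of the NUAK2 region is what the head of that list did in general. Against a whole-list share of 5.69%, this share belongs to the head rows and not to NUAK2. Among the partners of these 100 regions, row 368 was lower in number than 93 of the others (median 712, range 304 to 31510). Partners of DMSO rows 1 to 3 were at rows 460, 435 and 330, and those of rows 5 to 7 at rows 670, 331 and 412. The place of row 368 thus goes with the choice by DMSO row and is not particular to NUAK2. The NUAK2 partner's width of 455 bp exceeded 96 of the other partners (median 310 bp, range 153 to 521 bp). Regions at least as wide made up 0.122% of the SB431542 list. The DMSO region was also wide at 699 bp, more than 90 of the others (median 449 bp, range 249 to 949 bp). The shift was large for this group. The 162 bp between midpoints exceeded 97 of the other pairs, whose median was 27 bp, and only 12 of the 100 pairs had midpoints more than 100 bp apart. Its distance of 3401 bp to SMAD2 was in the middle part of the range, with 66 of the others nearer and 31 farther (median 1701 bp), and 9 of the 100 overlapped SMAD2.

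**Figure D2:**
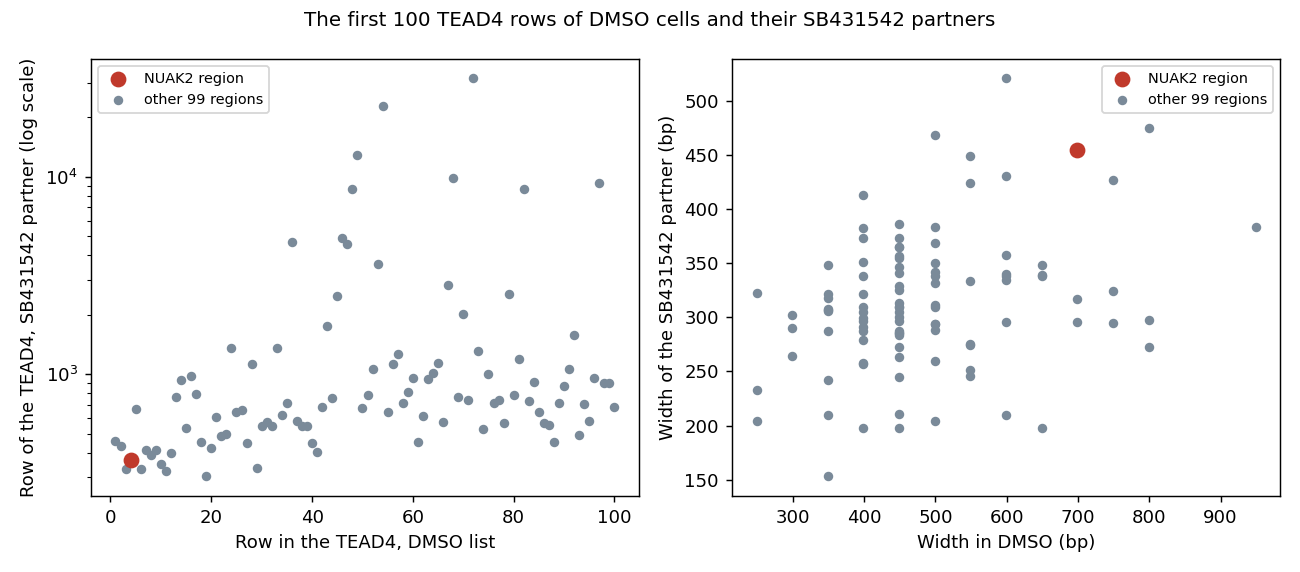
Each point is a region among rows 1 to 100 of the DMSO TEAD4 list: row of the SB431542 partner (log scale) against the DMSO row (left), and width of the partner against the DMSO width in bp (right). The NUAK2 region, in red, has partner row 368 (median 712) and widths of 455 bp in SB431542 and 699 bp in DMSO.

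A TEAD4 region inside the gene was the other region of the locus called under both treatments. It lay at chr1:205283143-205283380 under SB431542 (row 45324, 238 bp) and at chr1:205282951-205283449 in DMSO (row 2556, 499 bp). The SB431542 region fell wholly within the DMSO region, 7.5 kb downstream of the gene start. Its place differed between the lists. In DMSO it stood in the first 0.883% of rows, the next highest of the locus, and under SB431542 at 17.3% of rows. Rows of lists of different length and making show no change in binding, so these are given side by side only. Whether the region is exonic or intronic was not analysed here. It was 12.6 kb from the leading region by midpoints, and no other TEAD4 region in the first 5000 DMSO rows lay in the window. The nearest region in the first 1000 rows of either TEAD4 list, apart from the leading one, was 371 kb away (chr1:205641273-205641570, row 433 in SB431542, and chr1:205641101-205641599, row 108 in DMSO).

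These were 2 of the 25 TEAD4 regions in SB431542 (8%, 95% Wilson interval 2.22 to 25%, counting error only), beside 6.39% over that whole list, and 2 of the 19 in DMSO (10.5%, 2.94 to 31.4%), beside 5.69%. Both shares include the whole-list value in their intervals, and the leading region was fixed by its choice. More regions came close without meeting. With a gap of up to 500 bp allowed, 8 of 25 regions in SB431542 (16.4% over the list) and 7 of 19 in DMSO (14.7% over the list) had a partner. The closest of these pairs was 6 bp apart, between SB431542 (chr1:205350406-205350534, row 44054) and DMSO (chr1:205350201-205350399, row 212546), near the far edge of the window. Another pair was 59 bp apart and past the gene end, between SB431542 (chr1:205243216-205243341, row 219901) and DMSO (chr1:205243401-205243799, row 16962).

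SMAD2 and TEAD4 met at 4 TEAD4 regions of DMSO cells, 1 of them within NUAK2. Of the 19 TEAD4 regions 4 overlapped SMAD2 (21.1%, 8.51 to 43.3%), beside 7.67% of the whole TEAD4 list. In the other direction 5 of the 26 SMAD2 regions overlapped TEAD4 (19.2%, 8.51 to 37.9%), beside 5.29% of the SMAD2 list. Both intervals lie above the whole-list share. However, both shares count the same overlaps, and the intervals treat neighbouring regions as independent, so they cannot decide whether there is an excess. Of windows of the same size on chromosomes 1 to 22 and X, 4.37% had at least 4 such TEAD4 regions (median 1). This describes 1 window chosen from these lists and is not a test. When the overlap had to cover 50% of both regions, 1 TEAD4 region was left (5.26%, beside 2.5% of the list), and with only the first 50% of the rows of each list 1 of 13 was left (7.69%, beside 5.02%).

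Within the gene, the TEAD4 region chr1:205274401-205274649 (row 30296, in a stretch from row 27620 to 30492) bridged 2 SMAD2 regions, chr1:205274351-205274449 (row 377464) and chr1:205274601-205274749 (row 146486). It overlapped each by 49 bp. It lay 3.22 kb upstream of the gene end and was not called under SB431542, where the nearest region, the leading one, was 3411 bp away. The remaining 3 shared sites were outside the gene. Past its end, TEAD4 at chr1:205248601-205248749 (row 192889) held a SMAD2 region of 99 bp (row 388038). Next to it, TEAD4 at chr1:205249251-205249499 (row 177249) overlapped SMAD2 at chr1:205249401-205249599 (row 128970) by 99 bp. Before the gene start, TEAD4 at chr1:205350201-205350399 (row 212546) held a SMAD2 region of 99 bp (row 278736). Apart from the region in the gene, these TEAD4 regions stood in the later 50% of their list, and neither of the regions with the lowest TEAD4 rows, at the gene end and in the gene, overlapped SMAD2.

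No base of the window was covered by all 3 lists. SMAD2 at chr1:205249401-205249599 came closest, as it overlapped TEAD4 of SB431542 cells (chr1:205249593-205249716, row 222853) by 7 bp and TEAD4 of DMSO cells by 99 bp, at opposite ends. Another SMAD2 region, chr1:205220001-205220099 (row 375312), lay wholly within a TEAD4 region of SB431542 cells (chr1:205219982-205220113, row 211476) and had no TEAD4 partner in DMSO. These made 2 of 25 TEAD4 regions in SB431542 that overlapped SMAD2 (8%), beside 5.46% of the list, and 2 of 26 SMAD2 regions that overlapped TEAD4 in SB431542 (7.69%), beside 3.39% of the list. No region of another list was met by 21 of 25 TEAD4 regions in SB431542 (84%, beside 88.7% of the list), 13 of 19 TEAD4 regions in DMSO (68.4%, beside 87.2%) and 20 of 26 SMAD2 regions (76.9%, beside 91.6%). In both TEAD4 lists the leading region is among those that met another list, and its overlap was fixed by its choice.

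**Figure D3:**
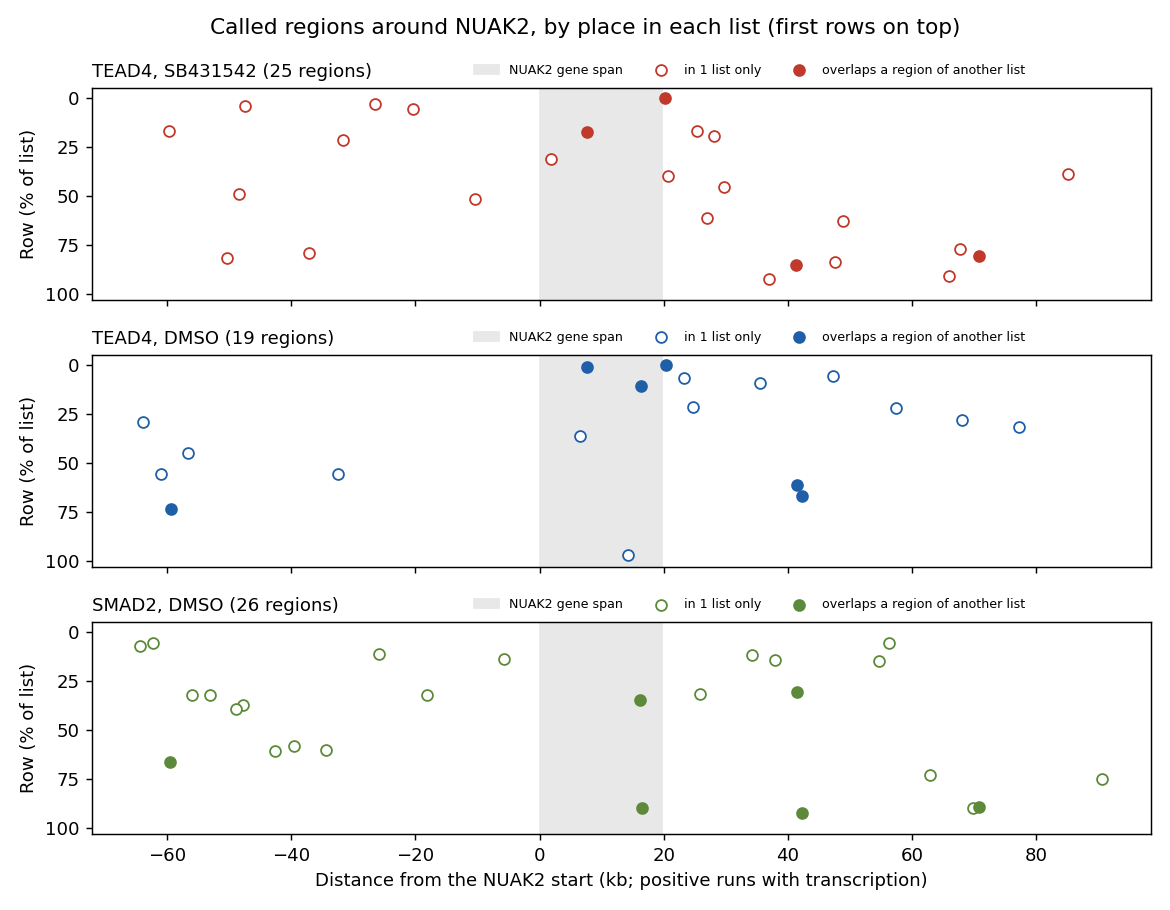
Each point is a called region, placed by its distance in kb from the NUAK2 start (positive with transcription) and by its row as a percentage of its list, first rows on top; filled points overlap a region of another list and grey marks the gene. The leading TEAD4 region stands at the gene end at the top of both TEAD4 panels, and the DMSO TEAD4 panel is empty for 38.8 kb around the start.

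The gene start itself was free of called regions in every list. The nearest TEAD4 region under SB431542 lay 1.77 kb inside the gene (chr1:205288929-205289114, row 81526, 186 bp), and it had no partner. The nearest in DMSO lay 6.38 kb inside the gene (chr1:205284251-205284499, row 104781). The remaining DMSO region in the gene, chr1:205276551-205276649 (row 280394), was 99 bp wide, stood at 96.9% of the rows and met no region of another list. The nearest SMAD2 region lay 5.67 kb before the start (chr1:205296551-205296749, row 58565). In the DMSO list the stretch without a TEAD4 region around the start measured 38.8 kb and reached from the gene to 32.4 kb before it, and stretches at least as long held 19.5% of all bases between regions of that list. The stretch measured 12 kb for TEAD4 in SB431542, where stretches as long held 70.9% of such bases, and 21.8 kb for SMAD2, where they held 20.7%.

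The sequence before the NUAK2 start is shown because it holds the letters of the TEAD core although no TEAD4 region was called on it. It comes from RefSeq on GRCh38.p14 (chr1:205321746-205321995, minus strand), a build whose coordinates differ from the hg19 positions given elsewhere. The 250 bases end just before the annotated start, and capitals mark the core GGAATG or, for the other strand, CATTCC.
NUAK2 promoter: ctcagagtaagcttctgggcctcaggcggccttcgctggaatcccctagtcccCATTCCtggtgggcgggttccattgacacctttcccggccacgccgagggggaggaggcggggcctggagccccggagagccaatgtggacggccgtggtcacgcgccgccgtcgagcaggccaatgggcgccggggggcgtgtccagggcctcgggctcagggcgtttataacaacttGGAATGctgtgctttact
The core was found 2 times over both strands, as CATTCC from base 54 to 59 and as GGAATG from base 233 to 238. This GGAATG begins 18 bases before the start. At least 1 match was present in 11.9% and at least 2 in 0.928% of the 35116 RefSeq promoters of the same length. The letters CAGAC of the SMAD box, which read GTCTG on the other strand, were searched in the same way and had 0 matches, and 38% of promoters held at least 1. A match is a run of letters and was not measured as a binding site. The sequence of the leading region on hg19 was not analysed here.

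Past the gene end the SB431542 list was dense. Within 10 kb it held 6 TEAD4 regions, against 3 in the TEAD4 list of DMSO cells and 1 SMAD2 region. Of all 10 kb windows on chromosomes 1 to 22 and X, 0.148% held at least 6 regions of the SB431542 list, 10.3% at least 3 of the DMSO TEAD4 list and 72.4% at least 1 SMAD2 region. This interval was set by the gene end and singled out with its regions in view. Besides the leading region and its narrow neighbour, the SB431542 regions were chr1:205261059-205261252 (row 118693), chr1:205262748-205262945 (row 50578), chr1:205263915-205264025 (row 161084) and chr1:205265551-205265654 (row 45102), none of which met a DMSO region. The DMSO regions were chr1:205266101-205266349 (row 61765, in a stretch from row 56837 to 62120) and chr1:205267601-205267749 (row 19502, in a stretch from row 17713 to 19626). Going away from the gene, the leading region was thus followed by the DMSO regions and then by these 4 SB431542 regions. Counted within 10 kb of the leading region on both sides, the SB431542 list held these same 6 regions. The median around the first 100 DMSO rows was 3, and 5 others had as many and 7 had more. The DMSO TEAD4 list stood much alike, with 4 regions besides the leading one against a median of 2, where 5 others had as many and 10 had more.

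Over the whole window the SB431542 list was also fuller than in most places. Its 25 regions compared with a median of 14 per window of the same size, and 3.99% of 17800 windows held as many. The 19 TEAD4 regions in DMSO (median 16, 33% of windows as many) and the 26 SMAD2 regions (median 24, 37.2% as many) were within the usual range. By place, 14 TEAD4 regions in SB431542 lay past the gene end, 2 in the gene and 9 before its start. The corresponding numbers were 10, 4 and 5 for TEAD4 in DMSO, and 11, 2 and 13 for SMAD2. The window reaches 71.2 kb past the gene end and 69.1 kb before the start.

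**Figure D4:**
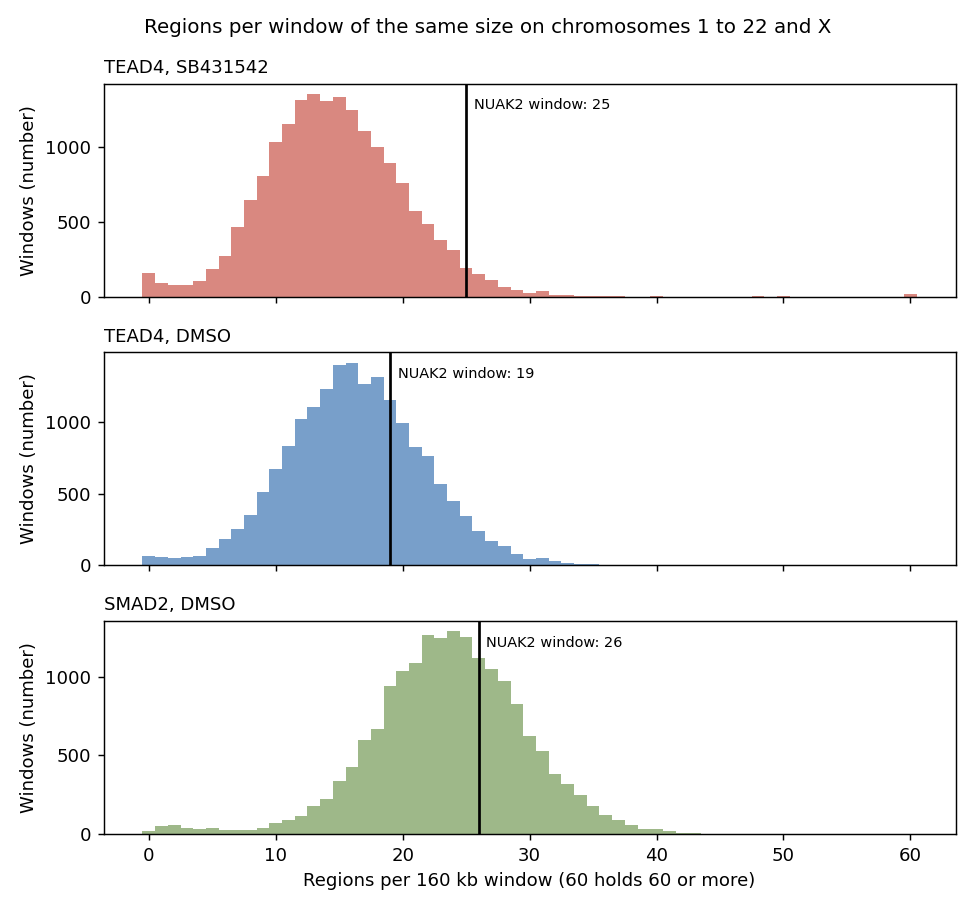
Number of windows (vertical) by the number of regions they hold (horizontal) for windows of 160 kb on chromosomes 1 to 22 and X, with the NUAK2 window as a black line. The window holds 25 TEAD4 regions in SB431542 (median 14), 19 TEAD4 regions in DMSO (median 16) and 26 SMAD2 regions (median 24).

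Before the gene start, 3 high rows of the SB431542 list had no TEAD4 partner in DMSO, which is the usual state: 13.4% of the first 10% of SB431542 rows overlapped the DMSO TEAD4 list. Regions at chr1:205311203-205311400 (row 14567), chr1:205317237-205317434 (row 8314) and chr1:205338166-205338363 (row 11605) were each 198 bp wide and in the first 10% of their list. Their nearest TEAD4 regions in DMSO were 11850, 5816 and 8937 bp away in that order. The stretches of rows that hold them ran over rows 14123 to 14611, 7365 to 8369 and 10447 to 11698. SMAD2 regions stood closer, at 2153, 337 and 187 bp in the same order, though none overlapped. The SMAD2 list is the denser, with a mean of 1.4 regions per 10 kb against 0.974 for TEAD4 in DMSO. Before the gene start it held 13 regions against 5. Whether the distances are shorter than this density gives was not tested. The SMAD2 region 337 bp away, chr1:205316701-205316899, was at row 47024.

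The first 10% of rows hold 10% of each list by construction, and the shares of the locus found there rest on small counts. Both TEAD4 shares count the leading region. The choice of the locus by DMSO row put it in the first 10% of the DMSO list, and its SB431542 place goes with that choice. These shares were therefore not read as an excess over 10%. With 4 of 25 regions, TEAD4 in SB431542 had 16% in the first 10% of its rows, these being the leading region and the 3 before the gene start. TEAD4 in DMSO had 5 of 19 (26.3%), all past the gene end or in the gene. A further region in the gene, row 30296, was left out at 10.5% of rows. Its stretch ran from 9.54% to 10.5% of rows and so spans the cut. SMAD2 had 3 of 26 (11.5%), at chr1:205234551-205234799 (row 23090), chr1:205353051-205353249 (row 23095) and chr1:205355051-205355299 (row 29385). The first lies 36.4 kb past the gene end, and the others lie 62.2 and 64.2 kb before the gene start. None of these 3 overlapped TEAD4, beside 11.1% of the first 10% of SMAD2 rows that overlapped a TEAD4 region of either treatment, and the last was 151 bp from a TEAD4 region of DMSO cells (chr1:205354701-205354899, row 83880). The widest SMAD2 region of the locus, 449 bp at chr1:205252701-205253149 (row 59738), lay 18 kb past the gene end and also met no TEAD4 region. Widths in the window had a median of 135 bp for TEAD4 in SB431542 (145 bp over the list), 249 bp for TEAD4 in DMSO (199 bp) and 149 bp for SMAD2 (149 bp).

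At the borders of the window the regions just inside were a SMAD2 region at chr1:205200201-205200299 (row 313527) and another at chr1:205355051-205355299, and those just outside were SMAD2 regions at chr1:205199451-205199649 (row 58566) and chr1:205361901-205362049 (row 342331).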

How the data were processed

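The authors deposited region lists of 3 columns (chromosome, start, end) with no header and no other measurement. Per the submitters' processing notes coordinates are on hg19. The aligner, caller, threshold, control library and depth were, in the sources used here, not given. The target and treatment that a list's name carries matched 1 sample title each. Starts are printed 1 bp higher, as for BED files, and width is end minus start. The window and gene span came with the choice of the locus, which, like the named regions and the comparisons, was chosen with earlier results of these data known. Regions were called shared at an overlap of at least 1 bp. Named were TEAD4 regions in or within 10 kb of NUAK2, shared regions, and the lowest rows and nearest regions of each list; other regions, and the ordering of rows in stretches, were chosen after their values were seen. Windows of 160 kb and 10 kb were laid over 23 chromosomes (1 to 22 and X) as a background without a test. Shares carry 95% Wilson intervals. Overlap counting was tested on simulated data. RefSeq tables on GRCh38.p14 gave gene names, strand and promoter letters and no hg19 position. Computation used NumPy 2.4.6 with SciPy 1.17.1 under Python 3.11.15, and figures matplotlib 3.10.9.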

Additional observations from a re-analysis of the deposited data

How the results depend on the processing

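Of 42 alternatives, 14 gave a value within 1.5 times the reported one and 28 moved further. The values are counts or overlaps in bp, so a change of direction was not possible. Counts in the window are given in the order TEAD4 in SB431542, TEAD4 in DMSO and SMAD2. A window of 80 kb held 15, 11 and 10 regions and one of 320 kb held 43, 36 and 55. The first 50% of rows left 14, 13 and 16, and the first 10% left 4, 5 and 3, by their construction. Regions shared between treatments, counted in SB431542 and in DMSO, numbered 1 and 1 with 50% of both regions (2.51% and 2.28% over the lists), 1 and 1 with midpoints within 100 bp (3.98% and 3.6%), 8 and 7 with gaps of up to 500 bp (16.4% and 14.7%), and 1 and 1 in the first 10% of rows (5.6% and 5.02%). With 50% of both regions the shared one was the leading region, and with midpoints it was the region inside the gene. By midpoints the leading region had no partner, which was entered as 0 bp. Its overlap was 415 bp or 416 bp under the other 3 settings. TEAD4 regions of DMSO cells shared with SMAD2, and SMAD2 regions shared with TEAD4, numbered 1 and 1 with 50% of both regions (2.5% and 1.72% over the lists), 2 and 2 with midpoints (5.63% and 3.88%), 1 and 1 in the first 50% of rows (5.02% and 3.46%), and 0 and 0 in the first 10% (1.4% and 0.963%, so that 0 of 5 and 0 of 3 are near what the lists give). No paired analysis was possible because there was 1 library per group, which also means that none could be omitted. The unknown depth and calling threshold limit every statement that a region was not called.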
